A study of Arabidopsis thaliana with 2 samples.

Results

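Peroxidase genes were taken from the deposited array table as all gene probes whose description holds the word peroxidase, leaving out ascorbate and glutathione peroxidases, thioredoxins, peroxiredoxins and the loci AT1G65970 and AT1G65980. This gave 79 loci of 26375 loci with a probe, or 0.3%, each read from its brightest probe. By description 73 of them are peroxidases, of the kind called class III peroxidases in plants. The other 6 only carry the word: 5 are haloperoxidase-related genes and the last is OCP3, a homeodomain gene named after a peroxidase. Gene names of the form PRX with a number follow the table's descriptions or the reference gene table. A further 14 peroxidases are given by locus alone.

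Class III peroxidases are heme enzymes that plant cells secrete into the cell wall and the vacuole. They use hydrogen peroxide to oxidise phenolic compounds, among them the monolignols that polymerise into lignin, and some of them also release reactive oxygen in the wall during an attack by a pathogen. The family is large, and its members differ in the tissue and the condition in which they are expressed.

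RNA came from young Arabidopsis thaliana leaves of the accession Columbia-0 at day 30. Plants of 1 transgenic line, 35S:NROB #2, were set against wild-type plants. The 35S promoter, of viral origin, drives strong transcription in most plant cells, and the labels leave the abbreviation NROB unexplained. Each of 2 Agilent arrays, called biological replicates 1 and 2, held 35S:NROB #2 RNA in Cy3 and wild-type RNA in Cy5. Dye and genotype therefore cannot be told apart. The labels do not say whether a replicate was 1 plant or a pool, so p-values measure the spread between these 2 arrays. A probe is not named for NROB in the table, and the transgene was not checked.

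Values are the authors' normalized intensities, in arbitrary units on a linear scale, and they are compared between genotypes for 1 probe at a time. A log2 ratio above 0 stands for a higher level in 35S:NROB #2, and the error after ± is the SD over both arrays (n = 2). Each spot carries a deposited flag, and a gene entered the limma test when its probe was flagged P on both arrays, which held for 16956 loci. A call is a limma adjusted p under 0.05 over all of these loci. The study's own threshold, a mean change over 2-fold, is used here as a fold rule. It asks that the sign be shared by both arrays and carries no test. A statement that the genotypes did not overlap describes 2 values against 2, also without a test. Its share over all loci was not counted. In such bulk leaf RNA, fewer cells of a type and less RNA per cell cannot be told apart. Median intensities of the loci tested were 1087 and 1246 in 35S:NROB #2 and 1093 and 1244 in wild type. The mesophyll markers RBCS1A, CAB1, CAB3 and RCA summed to 736532 and 696868 in 35S:NROB #2 and to 684179 and 724700 in wild type. Of the 3 root hair markers and the 3 flower markers, 0 were flagged P on both arrays. The root hair markers summed to 27.3 and 37.6 in 35S:NROB #2 and to 30.6 and 22.8 in wild type, and the flower markers to 81.1 and 157 in 35S:NROB #2 and to 56.9 and 77.8 in wild type. Among the flower markers, PI had 28.9 and 90.2 in 35S:NROB #2, against 6.21 and 7.49 in wild type, while AP3 stayed between 7.54 and 8.45.

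Most of the family was dim in these leaves. Of the 79 loci, 27 were flagged P on both arrays, 4 on 1 array and 48 were flagged A on both. In 36 of those 48, all 4 intensities lay under 20. The 27 loci in the test were 22 peroxidases and 5 of the 6 other loci. Gene spots flagged P had intensities of at least 35.1 and 51.0 in 35S:NROB #2 and 28.0 and 25.4 in wild type. A gene that is bright in 1 genotype alone can fall outside the test. The meaning of the flag letters was inferred from the values alone. PRX56 was flagged A on array 2 with both channels above these values, at 53.8 in 35S:NROB #2 and 183 in wild type.

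PRX52 was the peroxidase gene that rose at the limma threshold. Its intensity was 1275 and 2129 in 35S:NROB #2, against 55.7 and 77.6 in wild type. Both transgenic values lay far above both wild-type values. The log2 ratio was 4.65 ± 0.18, or 25.1-fold (limma adjusted p = 0.0244). PRX52 is known in Arabidopsis for the lignification of stem fibres. Its wild-type intensities were low: once 50 was added to all intensities as an offset, the log2 ratio was 3.87. PRX52 lay in the lower quartile of intensity, and the fit without that quartile does not hold it.

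The limma call was made for 1 of the 27 tested members (3.70%), against 0.248% of all loci tested. Before adjustment, 15 of the 27 had a limma p under 0.05 (55.6%), against 33.1% of all loci tested. The fold rule was passed as higher by 9 members (33.3%) and as lower by 1 (3.70%), against 4.82% and 2.84% of all loci tested. On array 1 alone 5 members were over 2-fold higher and 0 over 2-fold lower, and on array 2 alone 11 and 3. The shares of all loci on 1 array alone were not counted, so these 4 counts show nothing particular to the members. The members did not move together: 13 were higher on both arrays (48.1%, against 37.8% of all loci), 10 were lower on both (37.0%, against 43.3%) and 4 differed in sign. Their median log2 ratio was 0.05, against -0.03 over all loci tested. For the 22 peroxidases by description it was 0.64, with 0.23 on array 1 and 0.91 on array 2. In 17 of the 19 peroxidases with 1 sign on both arrays the ratio was larger in size on array 2. Over all loci tested the same held for 10724 of 13744.

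**Figure D1:**
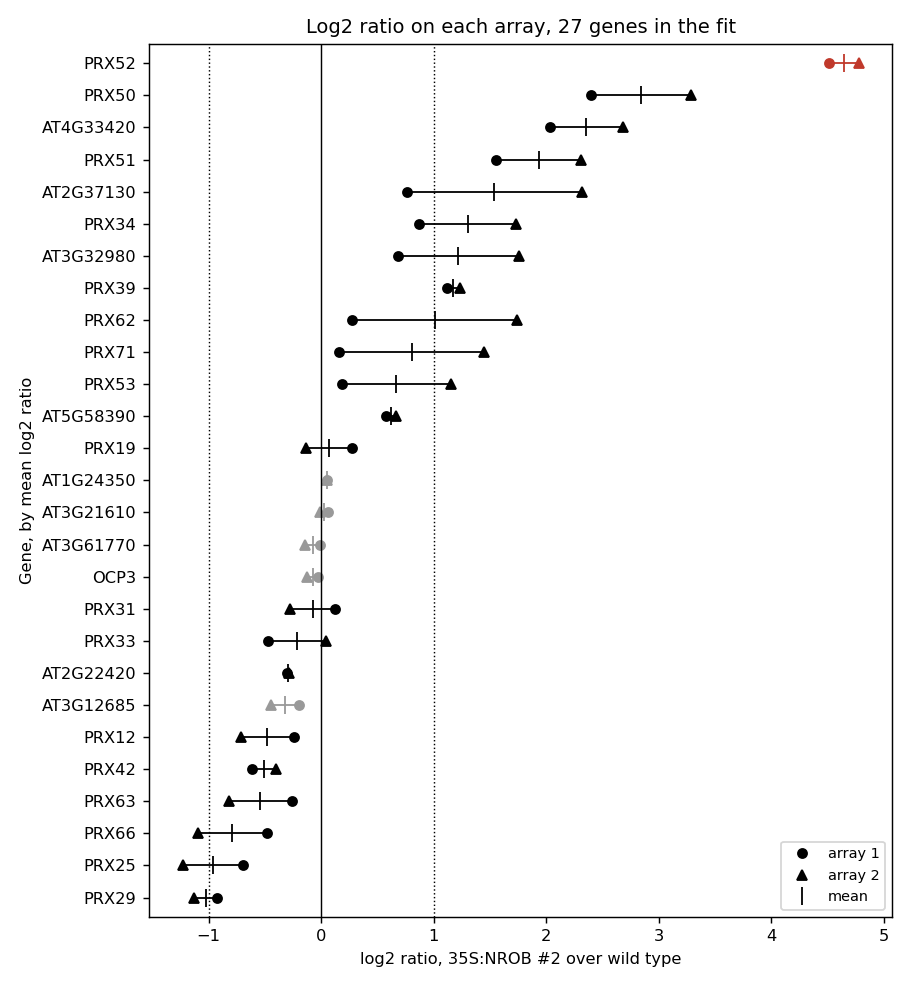
Log2 ratio of 35S:NROB #2 over wild type (x axis) on array 1 (circles) and array 2 (triangles) for the 27 genes in the test (y axis), with the mean as a tick. PRX52, the limma call, is red, peroxidases are black, the haloperoxidase-related genes and OCP3 are grey, and dotted lines mark a 2-fold difference. PRX52 lies at 4.52 and 4.78, while the 5 grey genes lie between -0.45 and 0.06.

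PRX50 and PRX51 lie next to each other in the reference annotation with no other gene between them, and were the adjacent pair of members in which both entered the test. PRX50 had intensities of 2678 and 5393 in 35S:NROB #2, against 508 and 551 in wild type. PRX51 had 410 and 717 in 35S:NROB #2, against 140 and 144 in wild type. In both genes the 2 transgenic values lay above the 2 wild-type values, with array 2 higher in the transgenic channel. The log2 ratio was 2.84 ± 0.63 for PRX50 (limma adjusted p = 0.0516) and 1.93 ± 0.54 for PRX51 (0.0547), so neither was called. Under 7 of 9 other fits that keep the channels of an array paired PRX50 was called, with limma adjusted p between 0.0251 and 0.0736, and PRX51 under 6 of 8. These counts, and the like counts below, leave out the fit with a trend and robust prior. That fit is paired too and called 1 member, but its adjusted p per gene was not kept. A second probe of PRX50 had a mean log2 ratio of 1.88. Neighbouring genes can be close in sequence, and whether each probe hybridises to 1 transcript was not tested.

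PRX39, which acts downstream of the root growth regulator UPBEAT1 in Arabidopsis, gave the narrowest spread among the genes past the fold rule. It had 1700 and 1689 in 35S:NROB #2, against 781 and 720 in wild type. Its log2 ratio was 1.18 ± 0.08 (limma adjusted p = 0.0516). It was called under 7 of 9 other paired fits (0.0260 to 0.0736), and its probes ranged from 1.02 to 1.18. AT3G32980 had 452 and 578 in 35S:NROB #2, against 282 and 171 in wild type, giving a log2 ratio of 1.22 ± 0.76 (adjusted p = 0.0962, limma). In both genes the genotypes did not overlap on the brightest probe. Other probes of AT3G32980, not flagged P on both arrays, had mean log2 ratios of 0.95 and -0.36. AT5G58390 stood at 1025 and 1114 in 35S:NROB #2, against 686 and 703 in wild type. Its log2 ratio was 0.62 ± 0.06 (adjusted p = 0.0734, limma), and its other probe stood at 0.33.

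**Figure D2:**
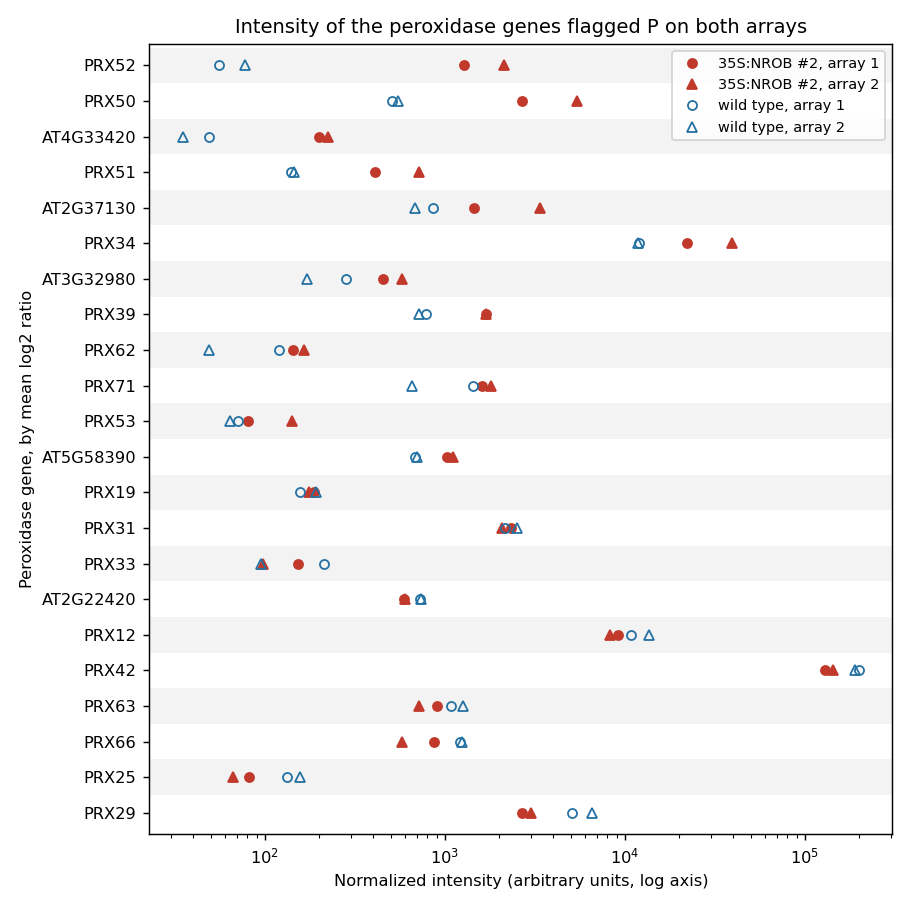
Normalized intensity on a log axis (x) of the 22 peroxidase genes in the test (y axis, by mean log2 ratio), with 35S:NROB #2 filled in red and wild type open in blue, circles for array 1 and triangles for array 2. The red points of PRX52 sit at 1275 and 2129, against 55.7 and 77.6 in wild type, and the points of PRX19, PRX31 and PRX33 interleave.

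Peroxidases of the oxidative burst and of wall defence were taken as a list of 7, of which 5 entered the test. Of these 5, 0 were called by limma (2 before adjustment, against 33.1% of all loci tested). The fold rule was passed as higher by 3, against 4.82% of all loci, and 4 were higher on both arrays, against 37.8%, with 1 differing in sign. The list's median log2 ratio was 1.01, with 0.27 on array 1 and 1.73 on array 2. On array 1 the largest ratio of the 5 was 0.87, under 2-fold. PRX34, which makes apoplastic hydrogen peroxide after elicitors in Arabidopsis, had 22036 and 39442 in 35S:NROB #2, against 12033 and 11891 in wild type. Its wild-type values were nearly alike and both transgenic values lay above them, and the log2 ratio was 1.30 ± 0.61 (adjusted p = 0.0752, limma). PRX33, its partner in the same burst, had 152 and 97.6 in 35S:NROB #2, against 212 and 95.0 in wild type. These values interleave, and the log2 ratio was -0.22 ± 0.37 (limma adjusted p = 0.425). PRX33 and PRX34 are known to be close in sequence, so how far their probes separate them is uncertain.

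AT2G37130 had 1449 and 3381 in 35S:NROB #2, against 854 and 679 in wild type. The genotypes did not overlap, and array 2 held most of the difference, with log2 ratios of 0.76 on array 1 and 2.32 on array 2 (mean 1.54 ± 1.10, adjusted p = 0.107 by limma). PRX71, which stiffens the wall after wall damage, had 1601 and 1798 in 35S:NROB #2, against 1430 and 658 in wild type. Its log2 ratio was 0.16 on array 1 and 1.45 on array 2 (adjusted p = 0.206 by limma). PRX62, known from stress and root hair growth in the cold, had 144 and 164 in 35S:NROB #2, against 119 and 48.9 in wild type. Its log2 ratio was 0.27 on array 1 and 1.74 on array 2 (adjusted p = 0.179 by limma). A further probe of PRX62, flagged A on both arrays, had a mean log2 ratio of -0.66. The remaining members, PRX4 and PRX5, were flagged A on both arrays. PRX4 had 23.2 and 47.9 in 35S:NROB #2, against 6.40 and 6.41 in wild type, and PRX5 stayed between 7.48 and 8.45 in all 4 channels. PR1, the standard marker of salicylate defence, stood at 11258 and 20928 in 35S:NROB #2 and at 168 and 185 in wild type.

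The difference between arrays in several of these genes lay in the wild-type channel. Array 2 over array 1, the median log2 difference of all loci tested was 0.21 in 35S:NROB #2 and 0.22 in wild type. The middle 90% of loci lay from -0.31 to 0.59 in 35S:NROB #2 and from -0.20 to 0.49 in wild type. PRX62 stood at 0.19 in 35S:NROB #2 and -1.28 in wild type, and PRX71 at 0.17 in 35S:NROB #2 and -1.12 in wild type. AT3G32980 stood at 0.35 in 35S:NROB #2 and -0.72 in wild type. PRX33 was lower on array 2 in both genotypes, at -0.64 in 35S:NROB #2 and -1.16 in wild type. In PRX50, PRX51 and PRX34 the difference lay in the transgenic channel instead, at 1.01, 0.80 and 0.84, with 0.12, 0.04 and -0.02 in wild type. In all, 6 of the 27 members lay above the middle 90% in 35S:NROB #2 (PRX34, PRX50, PRX51, PRX52, PRX53 and AT2G37130). Likewise 6 lay below it in wild type (PRX33, PRX62, PRX71, AT3G32980, AT4G33420 and AT2G37130).

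**Figure D3:**
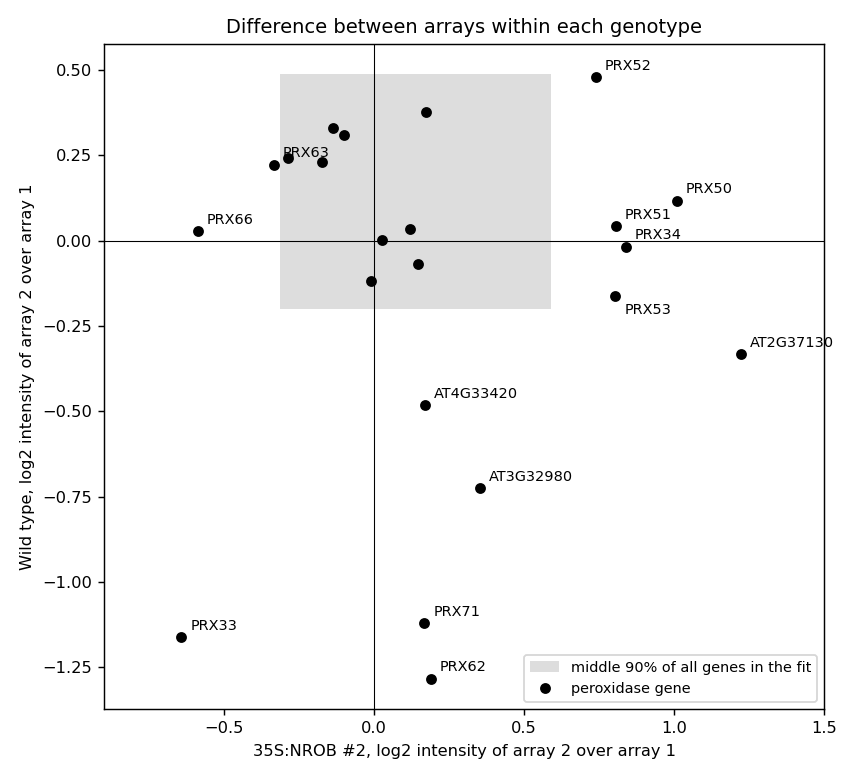
Log2 intensity of array 2 over array 1 in 35S:NROB #2 (x axis) and in wild type (y axis) for the 22 peroxidase genes in the test, with the middle 90% of all loci tested on each axis as a grey box. PRX62, PRX71 and PRX33 lie low at -1.28, -1.12 and -1.16 in wild type, and PRX50 and AT2G37130 lie right at 1.01 and 1.22 in 35S:NROB #2.

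Peroxidases of lignin and xylem formed a list of 8, of which 7 had a probe and 5 entered the test. Of these 5, PRX52 was called, against 0.248% of all loci tested. PRX52 and 1 more passed the fold rule as higher, against 4.82% of all loci. The other 3 were lower on both arrays without a call, against 43.3% of all loci. The median log2 ratio was -0.30. AT4G33420 had 200 and 225 in 35S:NROB #2, against 48.9 and 35.1 in wild type, and a log2 ratio of 2.36 ± 0.46 (adjusted p = 0.0516, limma). Its wild-type values lie close to the lowest wild-type intensities flagged P, 28.0 on array 1 and 25.4 on array 2, and with an offset of 50 the ratio was 1.52. The genotypes did not overlap, and it was called under 6 of 8 other paired fits (0.0245 to 0.0736).

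PRX66, expressed in differentiating vessels, had 870 and 578 in 35S:NROB #2, against 1215 and 1239 in wild type. Its log2 ratio was -0.79 ± 0.44 (limma adjusted p = 0.0962). PRX25, which contributes to stem lignin, had 81.6 and 66.8 in 35S:NROB #2, against 132 and 156 in wild type, at -0.96 ± 0.38 (0.0738). AT2G22420 had 591 and 601 in 35S:NROB #2, against 731 and 733 in wild type, at -0.30 ± 0.02 (0.168). In all 3 genes both transgenic values lay below both wild-type values. The share of all loci separated in this way was not counted. The 5 xylem markers (IRX1, IRX3, IRX5, XCP1 and XCP2) were also all lower on both arrays, with log2 ratios from -1.08 to -0.82 and a median of -0.94. Their summed intensity was 3685 and 2489 in 35S:NROB #2 and 5181 and 5969 in wild type. Lower on both arrays as well were 4 of 4 guard cell markers (median -0.48, SLAC1 at -1.32 ± 0.26) and 3 of 3 phloem markers (median -0.48). Over all loci tested, 43.3% were lower on both arrays. Of the 4 mesophyll markers, 2 were higher and 1 was lower on both arrays (median 0.0053). Of the 2 tested epidermis markers, 1 was lower on both arrays and 1 differed in sign (median -0.26). PDF1, the epidermis marker outside the test, was flagged P on 1 array. It had 73.0 and 31.9 in 35S:NROB #2, against 195 and 258 in wild type. With PDF1, the 3 epidermis markers summed to 6876 and 5846 in 35S:NROB #2 and to 6734 and 9266 in wild type. The guard cell markers summed to 2676 and 3122 in 35S:NROB #2 and to 3627 and 4721 in wild type, and the phloem markers to 18769 and 19246 in 35S:NROB #2 and to 22878 and 27669 in wild type. The part of these cell types in the values of the lower peroxidases was not tested. PRX64, of the Casparian strip, stayed between 7.64 and 8.71 in all channels, and PRX72, another lignin peroxidase, had 29.9 and 31.7 in 35S:NROB #2 and 35.6 and 40.4 in wild type, flagged A on both arrays.

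PRX29 was the member past the fold rule as lower. It had 2668 and 3008 in 35S:NROB #2, against 5068 and 6588 in wild type, and a log2 ratio of -1.03 ± 0.15 (adjusted p = 0.0547, limma). The genotypes did not overlap, and it was called as lower under 7 of 9 other paired fits (0.0324 to 0.0765). PRX42, also called PRXR1, had 129578 and 143223 in 35S:NROB #2, against 198840 and 189494 in wild type, at -0.51 ± 0.15 (0.0947). Its 6 probes flagged P on both arrays had means from -0.75 to -0.32. PRX12 had 9127 and 8297 in 35S:NROB #2, against 10824 and 13604 in wild type, at -0.48 ± 0.33. PRX63 had 900 and 714 in 35S:NROB #2, against 1079 and 1259 in wild type, at -0.54 ± 0.39. Wild type was thus the higher genotype on both arrays in these 4 genes.

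The other tested members had log2 ratios under 1 in size and no call. PRX53, known from cell elongation and nematode feeding sites, had 81.0 and 141 in 35S:NROB #2, against 71.3 and 63.7 in wild type, at 0.67 ± 0.68 (limma adjusted p = 0.189). PRX19 stood at 0.07 ± 0.29 and PRX31 at -0.08 ± 0.29, each with 1 array on either side of 0. OCP3, a regulator of resistance to necrotrophic fungi, stood at -0.08 ± 0.07. The haloperoxidase-related genes AT1G24350, AT3G21610, AT3G61770 and AT3G12685 stood at 0.05, 0.02, -0.07 and -0.32. AT3G61770, for example, had 2207 and 2463 in 35S:NROB #2 and 2219 and 2714 in wild type. The fifth, AT1G67600, was flagged P on 1 array, with 39.6 and 84.6 in 35S:NROB #2 and 26.5 and 48.7 in wild type. Its bound of 1.57-fold higher, set against the lowest wild-type intensities flagged P, was 0.817-fold with the higher floor described for the dim members, so no direction is given. Of 16 members with several probes, 8 had several flagged P on both arrays, and in these the mean log2 ratios of the probes shared a sign. On single arrays the probes of PRX31 ranged from -0.60 to 0.13 and those of AT3G21610 from -0.012 to 0.061. A bright peroxidase probe without a locus had 57456 and 53006 in 35S:NROB #2 and 86239 and 85831 in wild type, a mean log2 ratio of -0.64.

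Some members were bright in 35S:NROB #2 and dim in wild type, and were flagged A on both arrays, so no limma test holds them among the 16956 loci. For these a lower bound was set from the lowest wild-type intensity flagged P on each array. AT5G06730 had 532 and 1371 in 35S:NROB #2, against 6.11 and 15.7 in wild type. It was at least 32.0-fold higher, with bounds of 19.0 on array 1 and 53.9 on array 2. PRX37, whose overexpression in Arabidopsis stunts growth and changes wall phenolics, had 358 and 547 in 35S:NROB #2, against 19.4 and 23.2 in wild type. It was at least 16.6-fold higher, with bounds of 12.8 and 21.5. AT5G19880 and AT3G03670 were chosen after their values were seen. AT5G19880 had 154 and 288 in 35S:NROB #2, against 8.29 and 7.28 in wild type, at least 7.89-fold higher, with bounds of 5.50 and 11.3. AT3G03670 had 50.3 and 113 in 35S:NROB #2, against 19.0 and 19.6 in wild type, at least 2.83-fold higher, with bounds of 1.79 on array 1 and 4.46 on array 2. Since these 4 genes were picked for a bright transgenic channel or after their values were seen, their separation is a description.

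The bounds depend on the floor. With the 5th percentile of wild-type intensities flagged P, 63.5 and 79.0, as the floor, they were 12.1-fold for AT5G06730, 6.25-fold for PRX37, 2.98-fold for AT5G19880 and 1.07-fold for AT3G03670. When every gene probe entered limma whatever its flag, 14 of the 79 members were called (17.7%), 11 as higher and 3 as lower, against 5.81% of all 26375 loci. Of the 14, 6 are among the 27 members tested above. In the other 8 at least 1 genotype lay below its floor, so their ratios and the share of 17.7% rest in part on values near background. These 8 calls are not read as differences. For AT5G06730, PRX37 and AT5G19880, which are among them, only the bounds are used.

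**Figure D4:**
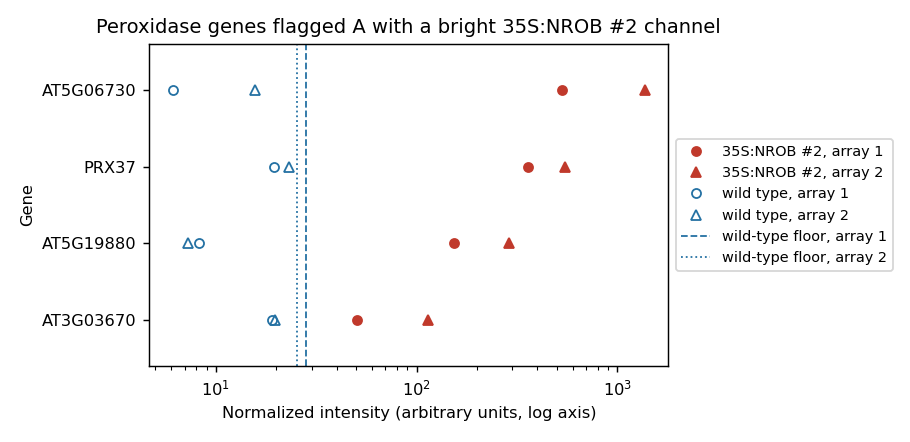
Normalized intensity on a log axis (x) of the 4 peroxidase genes (y axis) flagged A on both arrays and at least 2.83-fold higher in 35S:NROB #2, with 35S:NROB #2 filled in red, wild type open in blue, circles for array 1 and triangles for array 2. Vertical lines are the wild-type floors of 28.0 on array 1 and 25.4 on array 2, and every wild-type point lies below them. The bound of 2.83-fold, of AT3G03670, uses these floors and was 1.07-fold with the higher floor.

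Members also lie side by side in the genome. Among 10 pairs of members with no other gene between them, 1 had both genes in the test, 3 had 1 and 6 had neither, so most pairs give no measured comparison. Beside PRX37, PRX38 stayed between 7.89 and 13.9 in all channels. Beside AT5G06730, PRX53 stood at a log2 ratio of 0.67. Beside AT5G19880, PRX59 stayed between 7.28 and 13.1. Beside PRX71, PRX70 was flagged A on both arrays, with 54.1 and 28.8 in 35S:NROB #2 and 29.7 and 14.8 in wild type. PRX56, chosen after its values were seen, was flagged P on 1 array and had 94.4 and 53.8 in 35S:NROB #2, against 121 and 183 in wild type.

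The peroxidases listed for roots, the tapetum and the seed coat were dim in these leaves. PRX39 and PRX62, linked to root growth or root hairs above, are not on these lists and were flagged P on both arrays. Of the 8 root and root hair members, 0 entered the test. PRX44 and PRX73, which act in root hair growth, lay between 6.42 and 7.77, PRX57 between 6.73 and 7.88 and PRX7 between 7.50 and 8.50 in all channels. AT1G05240 lay between 6.50 and 7.48 and PRX27 between 8.88 and 13.8. PRX3, also called RCI3 and known from cold and potassium stress, had 22.2 and 8.73 in 35S:NROB #2 and 25.6 and 10.8 in wild type. PRX69 had 28.0 and 40.7 in 35S:NROB #2 and 40.5 and 11.8 in wild type. The tapetum peroxidases PRX9 and PRX40 and the seed coat peroxidase PRX36 lay between 6.80 and 16.9.

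The enzymes around the peroxidases were described with lists of the pathway. Of 18 genes of monolignol synthesis, which makes the phenolic substrates of lignin, 17 entered the test and 0 were called by limma (13 before adjustment). Among the 17, 15 were higher and 1 was lower on both arrays, with a median log2 ratio of 0.63. Over all loci tested, 33.1% had a limma p under 0.05 before adjustment, 37.8% were higher and 43.3% lower on both arrays. COMT1, a methyltransferase of the pathway, passed the fold rule, with 25247 and 40248 in 35S:NROB #2, against 11633 and 13191 in wild type (1.36 ± 0.35, limma adjusted p = 0.0550). PAL1 and C4H, the entry enzymes, stood at 0.89 ± 0.31 and 0.92 ± 0.33, and PAL3 at -0.63 ± 0.06. The isoform 4CL3 was flagged P on 1 array, with 86.4 and 33.6 in 35S:NROB #2, against 234 and 371 in wild type. Laccases, the other oxidases that couple monolignols, had 4 of 17 genes in the test and 0 calls by limma (3 before adjustment). The lignin laccases IRX12, LAC11 and LAC17 stood at -0.87 ± 0.51, -0.98 ± 0.83 and -0.86 ± 0.58, beside the lower xylem markers, and LAC13 at 0.16 ± 0.09. LAC7, flagged A on both arrays, had 78.9 and 153 in 35S:NROB #2, against 18.8 and 22.8 in wild type.

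Of the 10 NADPH oxidases, which supply superoxide and through it hydrogen peroxide, 2 entered the test and 0 were called by limma (0 before adjustment). RBOHD, the main oxidase of the pathogen-induced burst, stood at 0.21 ± 0.20 and RBOHF at 0.16 ± 0.07. Of 10 catalases and ascorbate peroxidases, which remove hydrogen peroxide, 9 entered the test and 0 were called by limma (5 before adjustment). APX5 passed the fold rule as lower, at -1.16 ± 0.54 (limma adjusted p = 0.0764). CAT2, the catalase of leaf peroxisomes, stood at -0.51 ± 0.21 and CAT3 at 0.70 ± 0.51. The list's median was -0.18, with 4 genes higher and 5 lower on both arrays, against 37.8% and 43.3% of all loci tested. Over all loci tested, 0.248% were called, 33.1% had a limma p under 0.05 before adjustment and 2.84% passed the fold rule as lower.

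**Figure D5:**
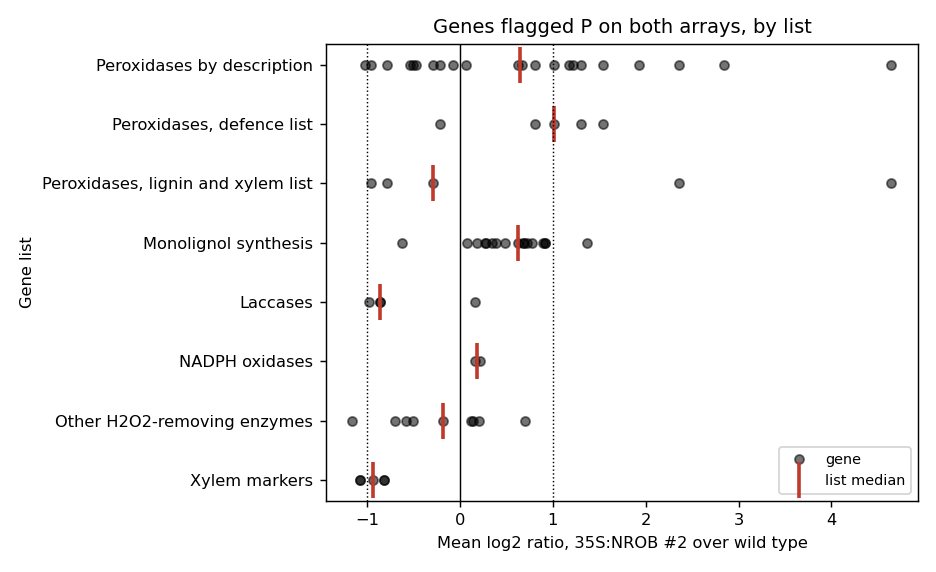
Mean log2 ratio of 35S:NROB #2 over wild type (x axis) of each gene flagged P on both arrays, by gene list (y axis), with the list median as a red tick and dotted lines at a 2-fold difference. Medians lie at 0.64 for the 22 peroxidases, 0.63 for monolignol synthesis, -0.86 for the laccases and -0.94 for the xylem markers.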

How the data were processed

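Total RNA was amplified, labelled in 2 colours and hybridised to Agilent arrays, per the labels' protocols, with Agilent Feature Extraction 8.5.1.1 as the software, per the submitters' processing notes. In the deposited table stands a normalized intensity for each channel, per the file headers, beside a log2 ratio that the authors formed with wild type on top. The sources used here do not give how background and normalization were handled. The log2 of the 2 channels equals the deposited ratio with its sign turned within 9.62e-07, and the deposited value table within 5.38e-06. Precision is limited by the 2 arrays.

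Of 43603 gene probes, 36688 were given a locus through the TAIR10.1 reference gene table, which served for names and neighbours: 34330 through an accession, 731 through a symbol and the others through a locus tag. Each locus took its brightest probe flagged P on both arrays (25318 gene probes). The 2 ratios per locus were fitted with limma 3.58.1 in R 4.3.3 (intercept, eBayes, 1 residual and 2.71 prior degrees of freedom), with Benjamini-Hochberg adjustment. The fit was tested on simulated data built on the comparison of 35S:NROB #2 with wild type (16956 genes, 200 changed, 20 runs): limma called 1.8% of genes at a log2 change of 1, 86.5% at 2 and 98.2% at 4, with 9.3 false calls per run. In the data 5609 loci had a limma p under 0.05 before adjustment, so the setting differs and these shares need not hold there. PRX50, at a log2 ratio of 2.84, was not called. Channels of an array are paired by hybridisation. Python 3.11.15, pandas 2.3.3 and matplotlib 3.10.9 read and drew the values.

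Members, lists and tests were chosen with earlier results of these data known. Named genes are the members called or past the fold rule, the 12 highest and 12 lowest of those tested, the members of the role lists, the 5 brightest in wild type, the members flagged A with a brighter channel above 200 on both arrays, and adjacent members. The epidermis marker list (median log2 ratio -0.26, 2 of 3 tested) was read too, and 1 lignin list member, AT1G05250, was not analysed here.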

Additional observations from a re-analysis of the deposited data

How the results depend on the processing

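The count of peroxidase members called by limma was 1, and 42 over all genes (40 higher, 2 lower). It was 1 with the series matrix values (42 over all genes), with a trend and robust prior (120) and with flag P on at least 1 array (25). It was 6 with median centring (613 over all genes), loess (1452), quantile normalization (720), an offset of 50 (725) and the mean of a gene's probes (610). It was 3 without the lower quartile of intensity (321), 14 with no flag filter (1532) and 14 with no replicate block, where the channels were not paired (2943, of which 1474 higher and 1469 lower). The 9 members past the fold rule as higher were 15 with no flag filter and 4 without the lower quartile; the 1 lower member was 2 with quantile normalization, 2 with flag P on at least 1 array and 4 with no flag filter. Without replicate 1 or without replicate 2 these counts were 11 and 5 higher, and 3 and 0 lower. The shares of all loci past the fold rule under these alternatives were not counted. The members' median log2 ratio of 0.05 was -0.075 without the lower quartile, and 0.040 and 0.13 without replicate 1 and 2. Signs turned in 4 genes near 0. Without replicate 1 or replicate 2, PRX19 stood at -0.14 and 0.27, AT3G21610 at -0.012 and 0.061, PRX33 at 0.040 and -0.48 and PRX31 at -0.28 and 0.13. Of 315 gene values under these alternatives, 46 gained a call. A further 265 kept their sign and their side of the threshold, or for 1 array alone kept their sign. With 2 arrays each lies within 1 SD of their mean by construction, so 1 array alone tests only the sign. The series matrix values repeat the main ratios, so the count of 265 does not measure stability. The bound of AT1G67600 went to 0.817-fold with the higher floor, chosen after seeing the data. PRX52 was called in all 9 other fits whose adjusted p for it was kept, with adjusted p up to 0.0392. The cause of these shifts was not tested. Dimness in wild type limits the folds of PRX52 and AT4G33420 and leaves bounds for 5 more members, AT1G67600 included.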
